A study of Mus musculus with 126 samples.

Results

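The primitive streak and mesoderm genes examined here are 9 genes, Wnt3, Fgf8, T, Eomes, Tbx6, Mixl1, Gsc, Evx1 and Mesp1. They were chosen by gene symbol, as genes known from the streak and the mesoderm that leaves it, and all 9 were found among the 23420 genes of the count table. RNA from mouse embryonic stem cells was depleted of ribosomal RNA and sequenced in 8 libraries, 2 for each of 4 groups, and the series' chromatin libraries were not analysed here. The cells were of strain J1, either wild type or Dnmt1-/-, Dnmt3a-/-, Dnmt3b-/- (TKO), so the knockout cells lack all 3 DNA methyltransferases named. Each genotype received Trichostatin A (TSA), an inhibitor of histone deacetylases, at a labelled 5 ng/µl for 36 h, or 0.0033% DMSO as the control for the same time. All 4 groups were kept on gelatin in medium with serum and leukaemia inhibitory factor, so every group was cultured under conditions that maintain stem cells and none was directed to form mesoderm. Whether the TKO cells come from 1 clone is not given in the sources used here.

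The primitive streak forms at the posterior side of the mouse epiblast, where Wnt3 and Nodal signals switch on the T-box factors T and Eomes, and cells that pass through it become mesoderm and endoderm. Wnt3 is the secreted ligand needed for the streak to form, T (Brachyury) is a T-box factor that responds to Wnt signals through TCF and LEF proteins, and Eomes acts in the early streak and also in trophoblast. In embryonic stem cells these genes are mostly low, and a small share of cells in serum cultures can transcribe T and Wnt3 spontaneously. In RNA from whole cultures, fewer expressing cells and less RNA per cell cannot be told apart.

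The 4 genes that differed between genotypes in DMSO, T, Wnt3, Eomes and Gsc, held from 8 to 22 CpG just before their starts, with Wnt3 and Gsc alike. CpG is the dinucleotide that the deleted enzymes methylate. The 250 bases before each start are shown 5′ to 3′ on the gene's strand with every CpG in capitals, from RefSeq on GRCm38.p6. They lie at chr17:8434173-8434422 on the plus strand for T, chr11:103773925-103774174 on the plus strand for Wnt3, chr9:118477939-118478188 on the plus strand for Eomes and chr12:104473237-104473486 on the minus strand for Gsc.
T: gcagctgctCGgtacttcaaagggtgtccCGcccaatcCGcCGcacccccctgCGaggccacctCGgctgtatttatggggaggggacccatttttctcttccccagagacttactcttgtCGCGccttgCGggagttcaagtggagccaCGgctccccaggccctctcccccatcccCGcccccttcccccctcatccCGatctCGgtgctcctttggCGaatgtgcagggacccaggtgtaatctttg
Wnt3: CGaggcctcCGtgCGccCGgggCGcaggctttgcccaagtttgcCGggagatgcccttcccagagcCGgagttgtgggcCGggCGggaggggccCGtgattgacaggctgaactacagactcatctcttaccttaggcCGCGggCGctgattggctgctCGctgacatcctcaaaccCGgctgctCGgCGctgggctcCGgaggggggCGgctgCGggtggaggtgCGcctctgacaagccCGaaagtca
Eomes: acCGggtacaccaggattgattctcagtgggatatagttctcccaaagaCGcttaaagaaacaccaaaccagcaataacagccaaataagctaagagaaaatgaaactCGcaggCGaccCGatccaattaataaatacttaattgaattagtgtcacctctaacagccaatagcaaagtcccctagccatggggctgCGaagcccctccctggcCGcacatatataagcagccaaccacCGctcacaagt
Gsc: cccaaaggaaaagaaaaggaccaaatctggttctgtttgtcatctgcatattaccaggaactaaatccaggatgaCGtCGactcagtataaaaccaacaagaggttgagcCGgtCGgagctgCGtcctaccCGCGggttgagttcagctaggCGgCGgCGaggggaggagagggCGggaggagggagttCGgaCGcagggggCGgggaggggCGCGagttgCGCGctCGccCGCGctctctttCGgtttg
The window of Wnt3 holds 22 CpG, that of Gsc 22, that of T 14 and that of Eomes 8. Over the 32851 promoters of the table the median was 6 and the quartiles were 2 and 16, so all 4 lie above the median, and Wnt3 and Gsc lie above the upper quartile. Of the 9 genes, 7 had a promoter in the table, and the other 3 of these held 10 (Evx1), 6 (Tbx6) and 2 (Mesp1). DNA methylation itself was not measured in the files used here.

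Letters of known motifs were searched in these windows on both strands. The SP1 letters GGGCGG, present in 32.7% of all promoters, occurred in T, Wnt3 and Gsc, starting 170 and 45 bases before the start in Wnt3, 79 and 51 in Gsc, and 222 and 73 on the opposite strand in T. The TCF/LEF letters ATCAAAG or TTCAAAG, present in 7.48%, occurred in T, 235 bases before the start, and in Mesp1 at 73 and, on the opposite strand, at 31. The TATA letters TATAAA, present in 12.4%, occurred in Gsc at 164 and in Tbx6 at 43. The letters CCGGAAGT (GABPA, 2.88%), CACGTG (MAX, 6.02%), AAGATGGC (YY1, 1.56%) and AGGTGTGA (T-box, 1.12%) were in none of the 7 windows. A match is a description of letters and not a bound site. Only these exact letters were searched, so a window without a match can hold a variant, such as TATATAA in that of Eomes.

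Levels are given as CPM, a gene's count relative to the size of its library, adjusted with TMM factors. The libraries held 13280631 to 15542527 counts, and 3 counts in a library amount to 0.193 to 0.226 CPM. That floor reflects counting error alone, since PCR copies of a molecule are counted as separate reads. The targeted genes were checked first: in DMSO, Dnmt1 fell from 446 ± 25.4 CPM (SD, n = 2) in wild type cells to 130 ± 6.31 in TKO cells, Dnmt3a from 211 ± 36.2 to 26.4 ± 0.802 and Dnmt3b from 592 ± 5.32 to 44.9 ± 1.78. All 3 were lower in each TKO library than in each wild type library. All 12 pluripotency markers were detected in every library, with a summed level in DMSO of 4169 to 4508 CPM for wild type and 5027 to 5504 for TKO cells, and with TSA of 2460 to 2664 for wild type and 2598 to 2830 for TKO cells.

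Per length, T and Wnt3 were the leading genes of the 9 in wild type DMSO, at 4.74 ± 2.17 and 4.40 ± 2.03 CPM per kb of exon (SD, n = 2). Eomes followed at 2.11 ± 0.576 and Fgf8 at 1.29 ± 0.779. The libraries of T and Wnt3 overlapped, as did those of Eomes and Fgf8, while both Wnt3 libraries stood above both Eomes libraries. The other 5 genes lay between 0.175 CPM per kb for Mesp1 and 0.509 for Mixl1. In TKO DMSO the order was different: Fgf8 stood at 1.27 ± 0.777, Gsc at 1.13 ± 0.461 and Eomes at 0.704 ± 0.0844 CPM per kb, and Wnt3 was at 0.223 ± 0.150 and T at 0.191 ± 0.0815. The libraries of Fgf8 and Gsc overlapped there, as did those of Wnt3 and T. In TKO TSA, Eomes stood first at 3.43 ± 0.141 CPM per kb, above every other gene, and the libraries of Gsc (0.442 ± 0.0551), Wnt3 (0.416) and T (0.378) overlapped. Averaged over the 8 libraries, the 9 genes lay between the 33.8th and the 50.7th percentile of all genes by CPM per kb, so all were low to middling in these cells.

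**Figure D1:**
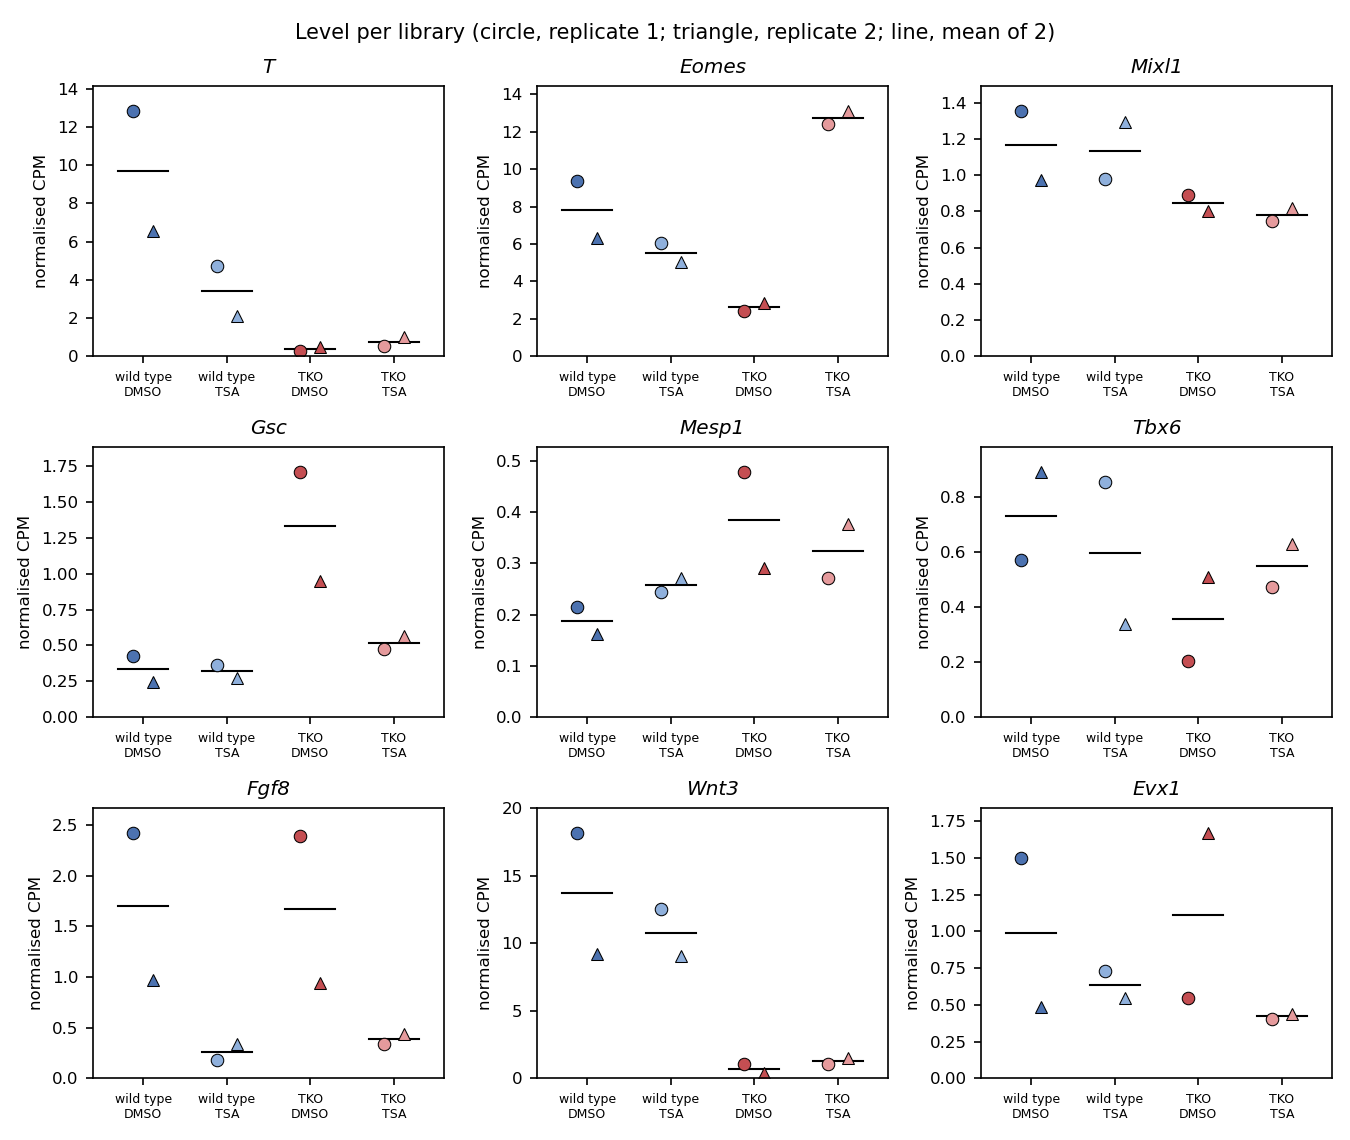
Normalised CPM (vertical axes, linear, from 0, scaled per panel) of each of the 9 genes in the 4 groups on the horizontal axis. Circles are replicate 1, triangles replicate 2 and lines the mean of 2 libraries. T and Wnt3 are high in the wild type libraries only, Eomes is at 12.4 and 13.1 CPM in TKO TSA, and Fgf8 is low in all 4 TSA libraries.

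Differences were tested with edgeR's quasi-likelihood test on 15822 genes, with Benjamini-Hochberg adjustment over all of them. Genes whose adjusted p was under 0.05 are termed called. Of the 9 genes, 8 passed the filter on low counts, which asks for about 10 counts in enough libraries. Mesp1, a basic helix-loop-helix factor of the earliest mesoderm, did not, with 2 to 7 counts per library. Gsc passed through its TKO DMSO libraries only and Fgf8 through its DMSO libraries only, and Tbx6 through 2 wild type libraries only, so a difference of these genes was favoured by the filter. With 2 libraries a group, the smallest p of an exact permutation test for 1 gene is 0.333, and the p-values given here therefore depend on the spread that the model pools over genes. The labels' design text calls the replicates biological.

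The loss of the DNA methyltransferases was compared in DMSO first. T, Wnt3 and Eomes were lower in TKO cells and Gsc, a homeobox factor of the anterior streak and organizer, was higher. Called were 4 of the 9 genes, 1 higher and 3 lower, beside 20.4% of all tested genes, of which 9.63% were called higher and 10.7% lower. Gsc, the 1 called higher, passed the filter through its TKO DMSO libraries only, so that call was favoured by the filter.

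Wnt3 was at 18.2 and 9.24 CPM in the wild type DMSO libraries and at 1.03 and 0.364 in the TKO DMSO libraries. The groups did not overlap, and the lower wild type library stood well above both TKO libraries. The level was 19.4-fold lower in TKO cells, a log2 fold change of -4.28 ± 0.46 (SE, edgeR adjusted p = 0.000148). T was at 12.8 and 6.57 CPM in wild type DMSO and at 0.274 and 0.509 in TKO DMSO, the latter from 4 and 7 counts. It was 24.6-fold lower, a log2 fold change of -4.62 ± 0.56 (edgeR adjusted p = 0.000319). In each gene replicate 1 of wild type DMSO was the higher library, by a wide margin, and both calls held with that library left out.

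Eomes was at 9.35 and 6.32 CPM in wild type DMSO and at 2.39 and 2.84 in TKO DMSO. It was 3.00-fold lower in the knockout (log2 fold change -1.59 ± 0.25, edgeR adjusted p = 0.00149), a smaller difference than those of T and Wnt3 and again without overlap. Gsc was at 0.428 and 0.243 CPM in wild type DMSO and at 1.71 and 0.946 in TKO DMSO, and its wild type levels rest on 6 and 3 counts. It was 3.85-fold higher in the knockout (log2 fold change 1.94 ± 0.52, edgeR adjusted p = 0.0227). This call was lost with DESeq2 (adjusted p = 0.146) and without any of 3 single libraries, at an edgeR adjusted p of 0.0642 without wild type DMSO replicate 1, 0.0906 without wild type DMSO replicate 2 and 0.166 without TKO DMSO replicate 1.

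The other 4 tested genes were not called between genotypes in DMSO. Fgf8, the ligand that moves cells away from the streak, was at 2.43 and 0.973 CPM in wild type and at 2.39 and 0.946 in TKO, so replicates of 1 group differed far more than the groups. Mixl1, a homeobox factor of streak and endoderm, was at 1.36 and 0.973 CPM in wild type and at 0.890 and 0.800 in TKO. Its wild type libraries were the higher ones, but the difference was within the error (log2 fold change -0.47 ± 0.40, edgeR adjusted p = 0.457). Tbx6, a T-box factor of the paraxial mesoderm, had a log2 fold change of -1.02 ± 0.64 (edgeR adjusted p = 0.294). Evx1, a homeobox factor of the posterior streak, had one of 0.12 ± 0.59 (edgeR adjusted p = 0.918). The antisense gene 5730457N03Rik covers 2.54% of the exon bases of Evx1, and the use of strand in counting is not stated.

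Markers of other lineages moved with genotype. The summed level of 9 endoderm markers was 105 to 115 CPM in wild type DMSO and 359 to 382 in TKO DMSO, with none at 0 in any of these libraries. Lama1, a laminin gene of basement membranes, held most of that sum, at 95.9 and 342 CPM, and 5 of the 9 were called higher and none lower. That of 8 fibroblast markers was 38.5 to 45.1 CPM in wild type DMSO and 11.0 in both TKO DMSO libraries. This difference was carried by 3 collagen genes, Col1a1 (12.4 and 0.670 CPM), Col1a2 (14.7 and 1.35) and Col3a1 (4.23 and 0.0706). These 3 were called lower, and the other 4 tested were not called. For 8 neuroectoderm markers the sum was 155 to 243 CPM in wild type and 92.3 to 113 in TKO. That difference was carried by Nes, an intermediate filament gene of neural progenitors, at 174 and 59.7 CPM (log2 fold change -1.54 ± 0.20, edgeR adjusted p = 0.000455). Of the 6 tested, 1 was called higher, Sox1 at 2.64 and 12.1 CPM (2.20 ± 0.28, edgeR adjusted p = 0.000398), and 1 lower, Nes, and their median log2 fold change was 0.33. Of 12 pluripotency markers, 4 were called higher in TKO DMSO and none lower. Beside these marker counts, 9.63% of all tested genes were called higher and 10.7% lower. The part of the marker differences in the results on T, Wnt3, Eomes and Gsc was not tested.

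**Figure D2:**
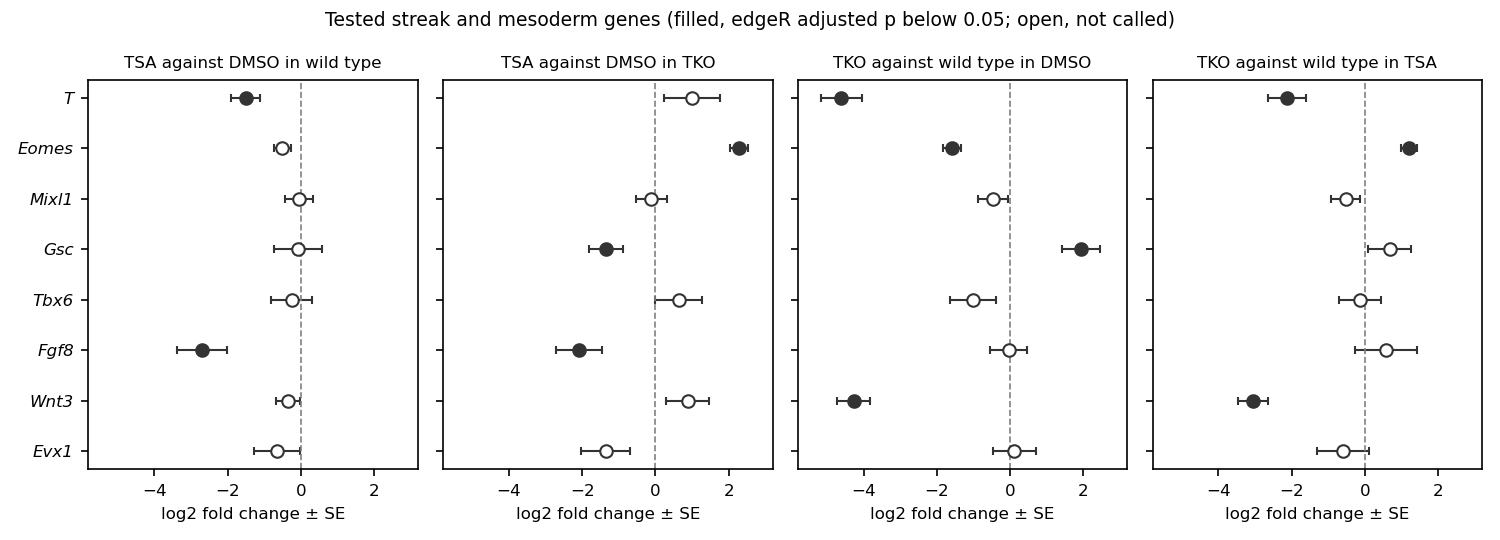
Log2 fold changes of the 8 tested genes (horizontal axis) with their SE, in 4 comparisons, 1 per panel. Filled circles passed an edgeR adjusted p below 0.05 and open circles did not. T and Wnt3 lie at -4.62 and -4.28 for TKO against wild type in DMSO, and Eomes at 2.28 for TSA in TKO cells.

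With TSA in wild type cells, T and Fgf8 fell, and none of the 8 tested genes was called higher. Among all tested genes, 52.8% were called, 27.0% higher and 25.9% lower. The 2 calls are of 8 tested genes with low counts, and Fgf8 passed the filter through its DMSO libraries only. T went from 12.8 and 6.57 CPM in DMSO to 4.70 and 2.11 in TSA. The groups did not overlap, although replicate 2 of DMSO and replicate 1 of TSA lay close together. T was 2.84-fold lower with TSA (log2 fold change -1.50 ± 0.40, edgeR adjusted p = 0.00916). Fgf8 went from 2.43 and 0.973 CPM to 0.183 and 0.340, with 3 and 5 counts in the TSA libraries, and was 6.50-fold lower (log2 fold change -2.70 ± 0.68, edgeR adjusted p = 0.00652). Both calls were lost without wild type DMSO replicate 1, at an edgeR adjusted p of 0.117 for T and 0.0803 for Fgf8, and that of T also without wild type TSA replicate 2, at 0.0708.

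Wnt3 was not called with TSA in wild type cells. Its levels were 18.2 and 9.24 CPM in DMSO and 12.5 and 9.04 in TSA, with overlapping groups (log2 fold change -0.35 ± 0.32, edgeR adjusted p = 0.374). Eomes was at 9.35 and 6.32 CPM in DMSO and 6.05 and 5.03 in TSA, a log2 fold change of -0.50 ± 0.23 (edgeR adjusted p = 0.0840). It was called without wild type DMSO replicate 2 (edgeR adjusted p = 0.0232). Mixl1, Gsc, Tbx6 and Evx1 had log2 fold changes from -0.65 for Evx1 to -0.05 for Mixl1, all with overlapping groups.

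With TSA in TKO cells, Eomes rose and Gsc and Fgf8 fell, which makes 3 of the 9 genes beside 58.7% of all tested genes, 30.8% higher and 27.9% lower. Gsc and Fgf8 passed the filter only through DMSO libraries, where they were higher, so the calls of their falls were favoured by the filter. Eomes went from 2.39 and 2.84 CPM in DMSO to 12.4 and 13.1 in TSA. Replicates lay close together in both groups, and the gain was 4.87-fold (log2 fold change 2.28 ± 0.24, edgeR adjusted p = 2.34e-05). This call was kept under all 15 alternatives run.

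Fgf8 went from 2.39 and 0.946 CPM to 0.338 and 0.440 in TKO cells and was 4.24-fold lower (log2 fold change -2.08 ± 0.63, edgeR adjusted p = 0.0142). Over the whole series Fgf8 was the 1 gene of the 9 whose 4 DMSO libraries all stood above its 4 TSA libraries. Fgf8 passed the filter through its DMSO libraries only, and the share of all genes so separated is not given here. Gsc went from 1.71 and 0.946 CPM to 0.474 and 0.565, 2.54-fold lower (log2 fold change -1.34 ± 0.47, edgeR adjusted p = 0.0276). The call of Fgf8 was lost without TKO DMSO replicate 1 (edgeR adjusted p = 0.186), TKO TSA replicate 1 (0.0665) or TKO TSA replicate 2 (0.0509). That of Gsc was lost without the same 3 libraries (0.241, 0.112 and 0.0836) and with DESeq2 (adjusted p = 0.200).

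T and Wnt3 did not regain their wild type levels in TKO cells with TSA. T was at 0.541 and 1.00 CPM against 0.274 and 0.509 in DMSO, a log2 fold change of 0.99 ± 0.76 (edgeR adjusted p = 0.284). Wnt3 was at 1.08 and 1.51 CPM against 1.03 and 0.364, a log2 fold change of 0.88 ± 0.59 (edgeR adjusted p = 0.222). Neither passed the test, and both TSA libraries of each gene stayed below every wild type library.

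The 8 trophoblast markers, 1 of which is Eomes, moved with TSA as well. Without Eomes, the other 7, of which Tfap2c made up the largest share of the sum in every group, summed to 64.7 to 70.5 CPM with DMSO and 220 to 231 with TSA in wild type cells, and to 48.4 to 69.6 with DMSO and 263 to 267 with TSA in TKO cells. Of the 8, 7 were called higher with TSA in each genotype. In wild type cells Eomes was not among the 7 that rose. Elf5, a defining trophoblast factor, was at 0.916 to 1.77 CPM in wild type TSA and 1.15 to 2.89 in TKO TSA, and at most 0.405 in the DMSO libraries. Fibroblast markers summed to 80.4 to 96.2 CPM in wild type TSA and 36.4 to 54.5 in TKO TSA, with 1 marker at 0 in each TKO TSA library. With DMSO they summed to 38.5 to 45.1 CPM in wild type and 11.0 in TKO. Of the 7 tested, 4 rose and 1 fell with TSA in wild type, and all 7 rose in TKO. Of 12 pluripotency markers, 10 fell with TSA in wild type and 9 fell in TKO, and none rose. Of 9 endoderm markers, 1 rose and 1 fell with TSA in wild type cells, and 2 rose and 1 fell in TKO cells. Beside these marker counts, 27.0% of all tested genes rose and 25.9% fell with TSA in wild type, and 30.8% rose and 27.9% fell in TKO. The part of all these markers in the TSA results was not tested.

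The genotypes were then compared under TSA. T and Wnt3 were lower and Eomes higher in TKO cells, 3 of the 9 genes beside 18.4% of all tested genes, 10.0% higher and 8.38% lower. Wnt3 was at 12.5 and 9.04 CPM in wild type TSA and 1.08 and 1.51 in TKO TSA, 8.26-fold lower (log2 fold change -3.05 ± 0.41, edgeR adjusted p = 0.000723). T was at 4.70 and 2.11 CPM and 0.541 and 1.00, 4.37-fold lower (log2 fold change -2.13 ± 0.53, edgeR adjusted p = 0.0178), a call lost without wild type TSA replicate 1 (0.178) or TKO TSA replicate 1 (0.0959). Eomes was at 6.05 and 5.03 CPM in wild type and 12.4 and 13.1 in TKO, 2.30-fold higher (log2 fold change 1.20 ± 0.22, edgeR adjusted p = 0.00418). Eomes therefore stood below wild type in TKO cells with DMSO and above wild type in TKO cells with TSA, and the other genes showed no such change of side among their calls. Over all 8 libraries the genotypes did not overlap for T, Wnt3 and Mixl1, higher in wild type, and for Gsc, higher in TKO. The share of all genes so separated is not given here. Mixl1 was not called in any comparison, and its nearest libraries were at 0.973 and 0.890 CPM (12 and 13 counts). Those of Gsc were at 0.428 and 0.474 CPM (6 and 7 counts).

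The interaction asks if TSA acted differently in TKO and wild type cells. Eomes alone of the 9 was called, with a log2 difference of 2.79 ± 0.34 (effect in TKO cells less the effect in wild type cells, edgeR adjusted p = 0.00533), beside 1.35% of all tested genes, 0.879% with a difference above 0 and 0.468% with one below 0. Without TKO DMSO replicate 2 the difference was 2.91 and the edgeR adjusted p 0.0539. T had a log2 difference of 2.49 ± 0.86, which did not pass (edgeR adjusted p = 0.205), and Wnt3 one of 1.23 ± 0.67 (edgeR adjusted p = 0.446). The fall of Fgf8 with TSA differed by 0.62 ± 0.99 between genotypes (edgeR adjusted p = 0.844), an interval too wide to show that the falls were alike.

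Cells with both changes, TKO with TSA, were also set against wild type DMSO. T was 12.4-fold lower (log2 fold change -3.63 ± 0.49, edgeR adjusted p = 9.08e-05), Wnt3 10.5-fold lower (-3.40 ± 0.41, adjusted p = 3.84e-05) and Fgf8 4.34-fold lower (-2.12 ± 0.63, adjusted p = 0.0125). Eomes was 1.62-fold higher (log2 fold change 0.70 ± 0.22, edgeR adjusted p = 0.0156). These 4 of 9 calls, 1 higher and 3 lower, stand beside 61.9% of all tested genes, 31.7% higher and 30.2% lower, and this comparison shares its libraries with the others. The call of Eomes was lost without wild type DMSO replicate 2 (edgeR adjusted p = 0.113) or TKO TSA replicate 2 (0.0695), and that of Fgf8 without wild type DMSO replicate 1 (0.167) or TKO TSA replicate 1 (0.0603).

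Replicates of some groups were unequal in these genes. In wild type DMSO, 8 of the 9 genes were higher in replicate 1, with a median ratio of 1.76, while 50.6% of all tested genes were higher there and their median ratio was 1.00. In TKO TSA, none of the 9 was higher in replicate 1, with a median ratio of 0.770, beside 48.9% of all tested genes. The other groups were closer to even, with 6 of the 9 higher in replicate 1 in wild type TSA and 5 of the 9 in TKO DMSO. The lone gene that was higher in replicate 2 of wild type DMSO was Tbx6, at 0.571 and 0.892 CPM.

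Among 34 genes of the Wnt pathway, all tested, 2 were called higher and 8 lower in TKO DMSO, and 4 higher and 3 lower in TKO against wild type under TSA. Beside these, 9.63% of all tested genes were called higher and 10.7% lower in DMSO, and 10.0% and 8.38% under TSA. The list was not tested against other genes. The 10 calls in DMSO were 4 without wild type DMSO replicate 1, 5 without TKO DMSO replicate 1 and 4 without TKO DMSO replicate 2, and the 7 under TSA were 2 without wild type TSA replicate 1. Wls, the carrier that brings Wnt ligands to the cell surface, was at 86.7 and 68.0 CPM in wild type DMSO and 8.55 and 6.99 in TKO DMSO. Its libraries followed the pattern of Wnt3, high in both wild type groups and low in both TKO groups, with 92.8 and 83.0 CPM in wild type TSA and 18.7 and 20.3 in TKO TSA. The log2 fold change was -3.31 ± 0.16 in DMSO (edgeR adjusted p = 1.47e-06) and -2.17 ± 0.14 under TSA (edgeR adjusted p = 6.11e-06). Among the 4 list genes higher in TKO under TSA were Fzd5 (0.89 ± 0.12, edgeR adjusted p = 0.000782) and Znrf3 (0.66 ± 0.14, edgeR adjusted p = 0.00833). The call of Znrf3 was lost without wild type TSA replicate 1 or TKO TSA replicate 2. Tcf7l2, a transcription factor of the pathway, was lower in TKO DMSO (-1.32 ± 0.32, edgeR adjusted p = 0.0130), and Notum, a secreted enzyme that inactivates Wnt ligands, was higher there (1.11 ± 0.23, edgeR adjusted p = 0.00650). The call of Tcf7l2 was lost without wild type DMSO replicate 1 (0.0904) or either TKO DMSO library (0.0945 and 0.0520).

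**Figure D3:**
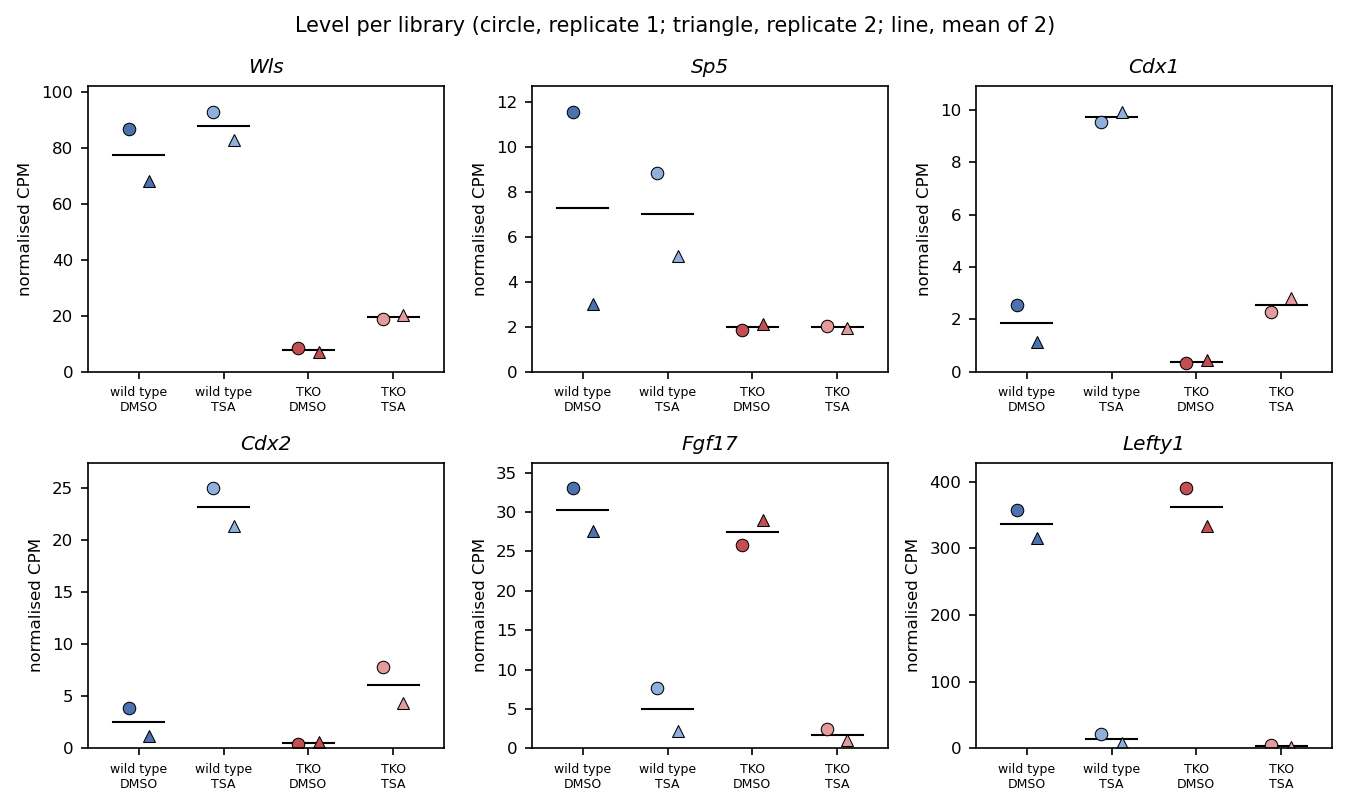
Normalised CPM (vertical axes, linear, from 0, scaled per panel) of 6 related genes in the 4 groups on the horizontal axis, with circles for replicate 1, triangles for replicate 2 and lines for the mean of 2. Wls and Sp5 are low in both TKO groups, Cdx1 and Cdx2 are highest in wild type TSA, and Fgf17 and Lefty1 are low in all TSA libraries.

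Among 30 other genes of the streak and early mesoderm, 26 were tested. In TKO DMSO 5 were called higher and 6 lower, and under TSA 2 higher and 4 lower in TKO. Of all tested genes, 9.63% were called higher and 10.7% lower in DMSO, and 10.0% and 8.38% under TSA. The 11 calls in DMSO were 4 without wild type DMSO replicate 1, 3 without TKO DMSO replicate 1 and 5 without TKO DMSO replicate 2. Cdx1 and Cdx2, caudal homeobox factors of the posterior embryo that respond to Wnt, were lower in TKO under TSA, with log2 fold changes at -1.92 ± 0.30 (edgeR adjusted p = 0.00169) and -1.94 ± 0.34 (edgeR adjusted p = 0.00327). In DMSO they were lower by -2.25 ± 0.49 and -2.37 ± 0.62 (edgeR adjusted p = 0.00797 and 0.0195). The calls in DMSO were lost without wild type DMSO replicate 1 (0.0835 and 0.237) or TKO DMSO replicate 1 (0.0652 and 0.125), and that of Cdx2 also without TKO DMSO replicate 2 (0.0900). Sp5, a zinc finger target of Wnt signals, was at 8.86 and 5.17 CPM in wild type TSA and 2.03 and 1.95 in TKO TSA (log2 fold change -1.82 ± 0.52, edgeR adjusted p = 0.0324). That call was lost with any of 5 single libraries left out, both TKO DMSO, both TKO TSA and wild type TSA replicate 1, at adjusted p from 0.0525 to 0.208. Foxf1, a factor of lateral mesoderm, was lower in TKO under TSA (-3.39 ± 0.47, edgeR adjusted p = 0.000846). It had 51 and 47 counts in wild type TSA and 7 and 2 in TKO TSA, so the size of its fall rests on few counts. Only its wild type libraries held about the 10 counts that the filter asks for, so this call was favoured by the filter. Pdgfra, a receptor of early mesoderm and of primitive endoderm, was higher in TKO DMSO, at 10.9 to 11.6 CPM against 1.78 to 2.19 (2.51 ± 0.26, edgeR adjusted p = 0.000123).

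With TSA, 12 of the 26 other streak genes rose and 4 fell in wild type cells, and 10 rose and 6 fell in TKO cells. Of all tested genes, 27.0% rose and 25.9% fell in wild type, and 30.8% rose and 27.9% fell in TKO. The median log2 fold change of the 26 was 0.50 in wild type and 0.51 in TKO, beside 0.01 and 0.04 over all genes, and the list was not tested against other genes. Hand1, a factor of lateral mesoderm and trophoblast, rose by 4.52 ± 0.32 in wild type and 4.51 ± 0.29 in TKO on the log2 scale (edgeR adjusted p = 7.97e-06 and 1.89e-06). Cdx2 rose by 3.16 ± 0.38 and 3.59 ± 0.54 (edgeR adjusted p = 9.05e-05 and 0.000221) and Cdx1 by 2.37 ± 0.32 and 2.70 ± 0.46 (edgeR adjusted p = 0.000156 and 0.000485). Cdx2 and Hand1 are among the trophoblast markers given above. Fgf17, a ligand of the Fgf8 subfamily, fell as Fgf8 did, from 33.0 and 27.6 CPM to 7.63 and 2.24 in wild type and from 25.9 and 29.0 to 2.44 and 1.07 in TKO. Its log2 fold changes were -2.59 ± 0.39 and -3.98 ± 0.45 (edgeR adjusted p = 0.000296 and 3.23e-05).

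In the FGF pathway list of 17 tested genes, 4 rose and 5 fell with TSA in wild type, and 5 rose and 5 fell in TKO. Those shares were close to the 52.8% of all tested genes called in wild type and the 58.7% called in TKO. Among the list genes that fell were 2 further ligands, Fgf4 (-2.75 ± 0.20 and -2.30 ± 0.19) and Fgf15 (-2.35 ± 0.24 and -3.50 ± 0.26), with edgeR adjusted p from 3.27e-06 to 3.66e-05. The receptors Fgfr2 and Fgfr3 rose in each genotype, Fgfr2 by 0.81 ± 0.14 in wild type and 2.04 ± 0.14 in TKO on the log2 scale (edgeR adjusted p = 0.000786 and 2.55e-06). Dusp6, a phosphatase that is a feedback target of FGF signals, was lower in TKO DMSO than in wild type DMSO (-0.90 ± 0.15, edgeR adjusted p = 0.00171).

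The Nodal pathway, which acts upstream of Eomes, Mixl1 and Gsc in the embryo, had 17 tested genes, of which 2 rose and 10 fell with TSA in each genotype. Their median log2 fold change was -0.62 in wild type and -0.56 in TKO, beside 0.01 and 0.04 over all genes. Among all tested genes, 27.0% rose and 25.9% fell with TSA in wild type, and 30.8% rose and 27.9% fell in TKO. The list was not tested against other genes. Lefty1, a secreted inhibitor and target of Nodal signals, went from 358 and 316 CPM to 21.2 and 7.68 in wild type and from 390 and 334 to 5.21 and 1.44 in TKO. Its log2 fold changes were -4.53 ± 0.39 and -6.78 ± 0.46 (edgeR adjusted p = 1.63e-05 and 2.19e-06). Lefty2, a near copy of Lefty1 whose reads may be split between them, changed by -4.18 ± 0.49 and -7.02 ± 0.58 on the log2 scale (edgeR adjusted p = 7.21e-05 and 5.18e-06). In TKO cells Eomes rose in the same libraries in which Lefty1 and Lefty2 fell, and Gsc fell there, a call lost with DESeq2. In wild type cells, where Lefty1 and Lefty2 also fell, Gsc (log2 fold change -0.08, edgeR adjusted p = 0.926) and Mixl1 (-0.05, 0.918) were not called, nor was Eomes. A link of these genes to the Nodal pathway was not tested.

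In the BMP pathway list, 8 of 15 tested genes rose and 1 fell with TSA in wild type, and 7 rose and none fell in TKO. Beside them, 27.0% of all tested genes rose and 25.9% fell in wild type, and 30.8% rose and 27.9% fell in TKO. The inhibitors of differentiation Id1 and Id3, direct targets of BMP signals, rose by 2.19 ± 0.17 and 2.04 ± 0.21 in wild type and by 1.83 ± 0.17 and 1.96 ± 0.22 in TKO on the log2 scale (edgeR adjusted p from 1.18e-05 to 3.84e-05). In TKO DMSO 2 genes of the list were higher and 2 lower, beside 9.63% and 10.7% of all tested genes. Among them was Id3 (-1.24 ± 0.22, edgeR adjusted p = 0.00269). Fewer of the list were called without wild type DMSO replicate 1 or TKO DMSO replicate 2.

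Of 14 other T-box genes, 8 were tested, and in TKO DMSO 3 were higher and 1 lower, which were 2 calls in all without wild type DMSO replicate 1 or TKO DMSO replicate 2. Between genotypes in DMSO, 9.63% of all tested genes were called higher in TKO and 10.7% lower. Tbx21, the factor of type 1 helper T cells, was at 0.928 to 0.973 CPM in wild type DMSO and 4.17 to 4.88 in TKO DMSO (log2 fold change 2.24 ± 0.31, edgeR adjusted p = 0.000729). Tbx3, which is known in stem cells and in mesoderm, was higher in TKO DMSO (1.18 ± 0.19, edgeR adjusted p = 0.00166) and fell with TSA in wild type (-1.48 ± 0.21) and TKO (-2.28 ± 0.20, edgeR adjusted p = 0.000236 and 8.03e-06). Tbx3 is also in the list of other streak and early mesoderm genes. The T-box genes therefore held members lower in TKO DMSO, T and Eomes, and members higher there, Tbx21 and Tbx3. Of 18 genes of later mesoderm, 11 were tested. In TKO DMSO 4 were higher and none lower, with 2 calls without wild type DMSO replicate 1 or either TKO DMSO library. Among them were Isl1, a factor of the second heart field (1.94 ± 0.37, edgeR adjusted p = 0.00409), and Twist1, a mesenchymal factor (0.93 ± 0.18, edgeR adjusted p = 0.00465). Gata4, another of the 4, is also 1 of the 5 endoderm markers called higher in TKO DMSO.

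**Figure D4:**
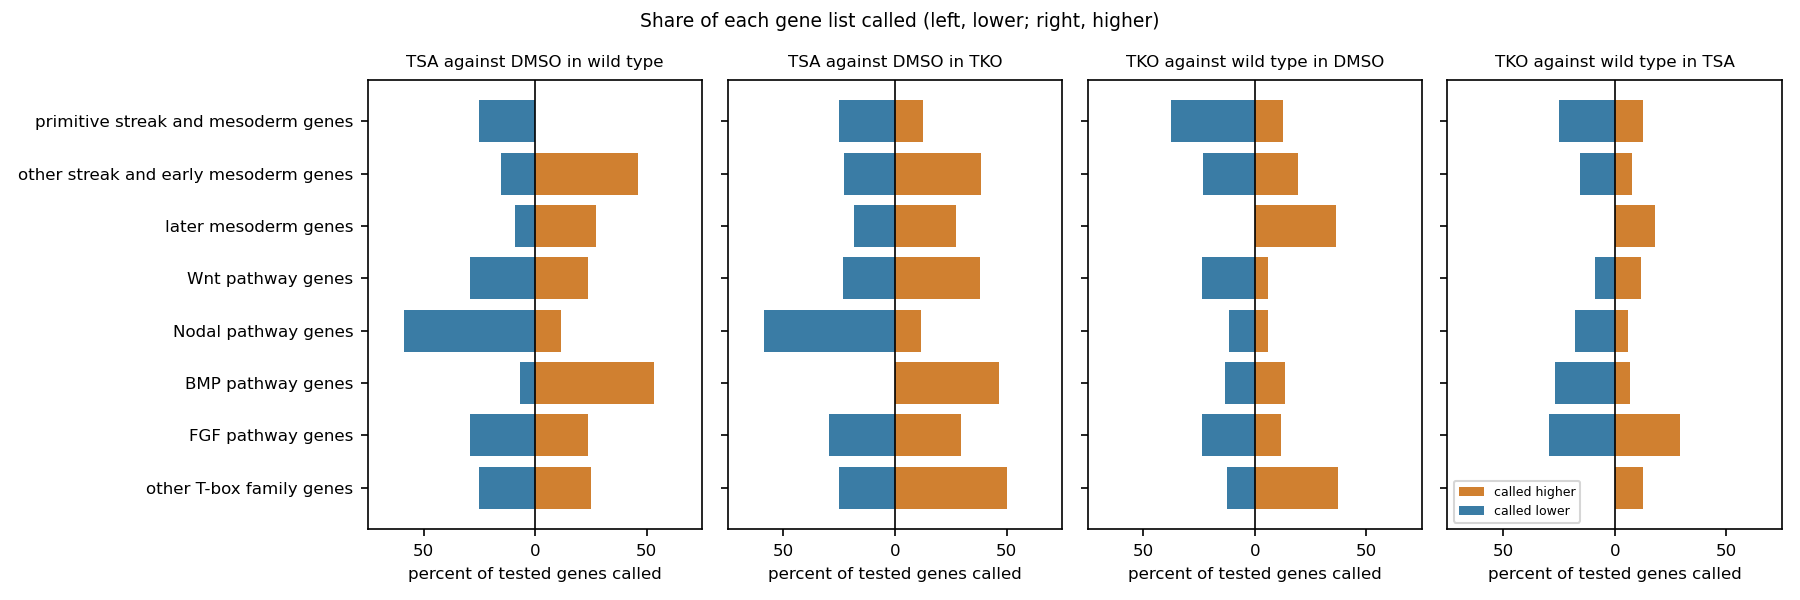
Percent of the tested genes of each list that were called (horizontal axes, orange to the right for higher and blue to the left for lower at an edgeR adjusted p below 0.05) in 4 comparisons, 1 per panel. The top bar is the 9 genes, of which 8 were tested, and the 17 tested Nodal genes show 10 lower calls with TSA in each genotype.

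The genes whose pattern over the 8 libraries was most like that of a member were ranked by Pearson's r of log2 CPM, as a description without a test, over points that share libraries and fall into 4 groups. For Wnt3 these were Syt13 (r = 0.991), Kif1a (0.987) and Tpm1 (0.984). Kif1a was at 85.5 ± 22.1 CPM in wild type DMSO and 11.7 ± 1.89 in TKO DMSO, and Tpm1 at 732 ± 260 and 166 ± 34.1. For T they were Kif1c (0.979), Sidt2 (0.973) and Ctu2 (0.973), and for Eomes Fat3 (0.985), Itpripl1 (0.982) and Mfsd2a (0.966). Fat3 was at 2.15 ± 0.0438 CPM in TKO DMSO and 9.15 ± 1.17 in TKO TSA, against 4.91 ± 1.33 and 3.95 ± 0.111 in wild type, so it had the same order of groups as Eomes. For Gsc they were Kcnh2 (0.965), Cnnm1 (0.961) and Zhx1 (0.947), and for Fgf8 Efna2 (0.973), Cyp2b23 (0.970) and 2310022A10Rik (0.970). The genes nearest to Mixl1 (Cars2, C87436 and Med17) and Evx1 (Hist1h4c, Slc50a1 and 0610031J06Rik) had r from 0.928 to 0.951.

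The genes with low counts carried values that limit what could be seen. In wild type cells Mesp1 was at 0.214 and 0.162 CPM with DMSO and 0.244 and 0.272 with TSA, and in TKO cells at 0.479 and 0.291 with DMSO and 0.271 and 0.377 with TSA, near the level that 3 counts give. No difference was detectable at this depth. Mixl1 stayed between 0.744 and 1.36 CPM in all 8 libraries, Tbx6 between 0.205 and 0.892, and Evx1 between 0.406 and 1.67, and none of these 3 was called in any of the 6 comparisons. The deposited table places Wnt3 on chromosome 11 from 103774175 to 103818021 with 5 exons on the plus strand, T on chromosome 17 from 8434423 to 8442496 with 8 exons on the plus strand, Eomes on chromosome 9 from 118478189 to 118486132 with 6 exons on the plus strand, Gsc on chromosome 12 from 104471209 to 104473236 with 3 exons on the minus strand and Fgf8 on chromosome 19 from 45736798 to 45742884 with 6 exons on the minus strand, all in mm10. Counts cover the exons of each gene, coding and untranslated alike as far as the table lists them.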

How the data were processed

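The authors deposited raw counts of reads by gene for the 8 RNA-seq libraries in 1 table, with exon positions and the summed exon length in bases. Per the submitters' processing notes, TopHat2 2.0.13, featureCounts 1.4.5-p1, edgeR 3.22.3 and the build mm10 were used; the annotation, the strand setting and how reads with several positions were counted are not given in the sources used here. Libraries were grouped by genotype and treatment from their labels. The test was edgeR 4.0.16 (R 4.3.3), with the filterByExpr filter, which kept 15822 of 23420 genes, and TMM scaling. All 8 libraries entered a quasi-likelihood fit of 4 group means with 4 residual degrees of freedom. Tests were two-sided, adjustment was by Benjamini-Hochberg over the genes tested, and genes were called at 0.05. Approximate standard errors (SE) were computed as the log2 fold change divided by the root of F. Replicate pairs had a chi-square per degree of freedom of 5.17 to 11.7, so no pair agreed within sampling noise. The fit was tested on simulated data.

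The 9 genes, the lists and the markers were chosen with earlier results of these data known. From each list, at most 4 called genes per comparison were eligible to be named, those with the largest change among genes whose mean level reached 1 CPM. Alternatives were other scalings (DESeq2 size factors, upper quartile, total counts), no filter, a replicate block, only the groups compared, DESeq2 1.42.0 and each library left out. The chromatin libraries were not analysed here. The genes most like Tbx6, and some genes eligible to be named, are not reported here.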

Additional observations from a re-analysis of the deposited data

Results flagged for a closer look

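These results were singled out because the effect of TSA differed between wild type and TKO cells by the test of that difference itself, given as the log2 effect in TKO cells less the effect in wild type cells. Among the 9 streak and mesoderm genes it was Eomes, at 2.79 ± 0.34 (SE, edgeR adjusted p = 0.00533), with both TKO TSA libraries above both TKO DMSO libraries and both wild type TSA libraries below both wild type DMSO libraries. Its adjusted p was at most 0.0539 over 14 alternatives.

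Among the genes of the signalling lists there were 6 more. In the Wnt list, Wls was at 1.14 (edgeR adjusted p = 0.0337), and its level in TKO cells went from 7.77 to 19.5 CPM with TSA, and Fzd7, a Wnt receptor, was at 0.92 (adjusted p = 0.0372). In the FGF list, Fgfr2 was at 1.22 (edgeR adjusted p = 0.0260) and Spry4, a feedback inhibitor, at -1.03 (adjusted p = 0.0478). Tdgf1, the co-receptor of Nodal, was at -1.63 (edgeR adjusted p = 0.0275), with 386 CPM in wild type TSA and 126 in TKO TSA. Bmp4, the ligand that patterns the streak from outside the epiblast, was at -1.08 (edgeR adjusted p = 0.0334), with 47.4 CPM in wild type TSA and 20.3 in TKO TSA. The calls of all 6 were lost with some single libraries left out, wild type DMSO replicate 1 and each TKO DMSO library among them, and their highest adjusted p over 14 alternatives lay between 0.147 for Fgfr2 and Tdgf1 and 0.232 for Spry4. Other settings called more genes of these lists: without the filter on low counts 4 Wnt and 5 Nodal genes passed, against 2 and 1, and without wild type DMSO replicate 2 there were 5 and 2.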

How the results depend on the processing

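Of 17 calls among the 9 genes, none changed direction in 254 alternative values and 21 values lost the call, 19 of them with 1 library left out. The calls of Wnt3, of T between DMSO groups and with both changes, and of Eomes with TSA in TKO and between genotypes were never lost. With 1 library left out, the number of the 9 genes called ranged from 0 to 3 for TSA in wild type (0 without wild type DMSO replicate 1, 1 without wild type TSA replicate 2), from 1 to 3 for TSA in TKO (1 without either TKO TSA library), from 3 to 4 and 2 to 3 for the genotypes in DMSO and TSA, from 3 to 4 for both changes and from 0 to 1 for the interaction (0 without TKO DMSO replicate 2). A gain of a call occurred 3 times, for Eomes (TSA in wild type) and Evx1 (both changes, adjusted p = 0.0382) without wild type DMSO replicate 2, and for Evx1 (TSA in TKO, 0.0318) without TKO DMSO replicate 1. Uncalled values changed sign 25 times in 458. With upper quartile scaling Mixl1 and Gsc with TSA in wild type became 0.097 and 0.064, and with total counts 0.15 and 0.12, while Mixl1 with TSA in TKO became 0.034. With 1 library left out, the ranges were -0.26 to 0.22 (Mixl1), -0.75 to 0.23 (Wnt3), -0.41 to 0.39 (Gsc), -1.21 to 0.40 (Evx1) and -1.07 to 0.24 (Tbx6) for TSA in wild type, -0.86 to 0.77 (Fgf8) and -0.88 to 1.15 (Evx1) for genotype in DMSO, -0.62 to 0.69 (Tbx6) for genotype in TSA, and -0.19 to 1.44 (Fgf8), -0.32 to 0.15 (Mixl1) and -1.74 to 0.29 (Evx1) for the interaction. The cause was not tested. Mesp1, tested without the filter, was not called (adjusted p from 0.500 to 0.941). Deviations of libraries with the same number correlated at 0.0673 to 0.325, and the labels do not say what the number marks. With a replicate block the numbers of the 9 genes called were 2, 3, 4, 3, 4 and 1, as without it. With the block the other streak list had 10 calls between genotypes under TSA against 6, and the interaction called 6 Wnt and 6 Nodal genes against 2 and 1. Over all genes the interaction gave 213 calls, 633 with the block, 488 without the filter, 401 with DESeq2 and 9 to 392 with 1 library left out. Leaving out 1 library gave 1435 to 3328 calls against 3221 between genotypes in DMSO and 930 to 3399 against 2910 in TSA. Total counts moved the median of all genes to 0.22, 0.19 and 0.17 (TSA in wild type, TSA in TKO, both changes) and the split of higher and lower calls from 4266 and 4092 to 5812 and 2433, from 4872 and 4412 to 5908 and 3267, and from 5015 and 4778 to 6064 and 3542. Upper quartile scaling moved these medians to 0.16, 0.11 and 0.11, the first split to 5365 and 2794, and that of the interaction from 139 and 74 to 96 and 85.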
